A study of Homo sapiens and Mus musculus with 19 samples.

Results

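The genes described here encode the long non-coding RNA NEAT1 and 8 of the proteins that join it in paraspeckles. They were chosen by symbol as NEAT1, PSPC1, NONO, SFPQ, RBM14, TARDBP, HNRNPK, DAZAP1 and CPSF6, 9 of the 58721 genes in the human tables, together with their 9 mouse orthologues among 54446 genes. Their values are counts of chromatin-associated RNA (caRNA), the RNA that stays with the chromatin pellet after cytoplasm and nucleoplasm have been washed away, sequenced as ribosome-depleted total RNA. The study asked how m5C on caRNA, written by NSUN2, oxidized by TET2 and bound by MBD6, affects chromatin.

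Mouse embryonic stem cells (mESCs), kept in LIF with MEK and GSK3 inhibitors and passaged on gelatin to clear feeder cells, received a non-targeting siRNA (siControl, 3 libraries) or one directed at Nsun2 (siNsun2, 3 libraries). K562, a human erythroleukaemia line derived from chronic myeloid leukaemia, was used in 4 groups of 3 libraries: wild type for TET2 (TET2 WT) or TET2-knockout (TET2 KO), each labelled with either a control short hairpin RNA (shControl) or one against MBD6 (shMBD6), and per the labels all under puromycin. The sample list of the study names siRNAs for the same K562 libraries, and which was used is uncertain. The labels give replicate numbers, and the study speaks of biological replicates without saying what was grown or treated separately, so the p-values measure the spread between these libraries, part of which may be technical. Whether each K562 genotype was a single clone was not given in the sources used here.

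Paraspeckles are nuclear bodies that assemble co-transcriptionally around NEAT1. The gene gives a short polyadenylated transcript and a long one whose 3′ end is cut by RNase P beneath a tRNA-like fold, and only the long transcript builds the body. The related proteins SFPQ, NONO and PSPC1 (the DBHS family) coat and stabilize the RNA, HNRNPK favours the long transcript by restraining cleavage factor Im, of which CPSF6 is a subunit and which favours the short one, and RBM14 and DAZAP1 are needed for the body to hold together. TARDBP encodes an RNA-binding protein best known from motor neuron disease, which binds NEAT1 and favours its early polyadenylation.

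The human gene lay on chromosome 11 (65422774 to 65445540, plus strand, hg38) and the mouse gene on chromosome 19 (5824708 to 5845478, minus strand, mm10), each as a lncRNA without a coding exon. The last 100 bases of the short and of the long transcript are shown because the gene counts add them together. These ends, from the GENCODE transcripts, lie at chr11:65426414-65426513 and chr11:65445441-65445540 on the plus strand in human, and at chr19:5842307-5842406 and chr19:5824708-5824807 on the minus strand in mouse. Capitals mark the polyadenylation signal AATAAA, which ended 5 bases before the end of the human short transcript NEAT1-209 and 14 bases before the end of the mouse one. The human short transcripts NEAT1-201 and NEAT1-203 end at other positions and hold no AATAAA in their last 100 bases.
NEAT1-209, short, 3301 nt: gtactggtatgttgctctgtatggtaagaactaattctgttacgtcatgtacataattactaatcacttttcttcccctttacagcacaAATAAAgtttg
NEAT1-202, long, 22743 nt: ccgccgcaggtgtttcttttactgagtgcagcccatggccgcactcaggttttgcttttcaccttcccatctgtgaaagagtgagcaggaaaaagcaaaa
Neat1-202, short, 3004 nt: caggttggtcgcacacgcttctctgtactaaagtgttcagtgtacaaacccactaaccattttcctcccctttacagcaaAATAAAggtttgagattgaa
Neat1-201, long, 20771 nt: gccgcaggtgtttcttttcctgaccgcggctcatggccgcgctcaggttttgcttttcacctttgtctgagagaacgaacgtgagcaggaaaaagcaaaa
AATAAA was not in the last 100 bases of either long transcript. Since the short transcript lies within the start of the long one, reads from its part of the gene cannot be assigned to either, and every value of NEAT1 below is the sum of both.

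RefSeq promoters (GRCh38.p14, 300 bases from upstream of each start to just past it) were found for 7 of the 9 genes, 8 promoters in all, and none for NEAT1 and SFPQ. Those of NONO, HNRNPK and PSPC1 are printed because NONO and HNRNPK moved together in K562 and PSPC1 apart from them. Capitals mark, on either strand, AAATGGC (the core of a YY1-type motif), GGGCGG (Sp1-type) and CCAAT, which do not overlap each other here. The 4 windows are NONO at chrX:71283385-71283684 on the plus strand, and on the minus strand PSPC1 at chr13:19782896-19783195 and the starts of HNRNPK at chr9:83980566-83980865 and chr9:83980166-83980465.
NONO: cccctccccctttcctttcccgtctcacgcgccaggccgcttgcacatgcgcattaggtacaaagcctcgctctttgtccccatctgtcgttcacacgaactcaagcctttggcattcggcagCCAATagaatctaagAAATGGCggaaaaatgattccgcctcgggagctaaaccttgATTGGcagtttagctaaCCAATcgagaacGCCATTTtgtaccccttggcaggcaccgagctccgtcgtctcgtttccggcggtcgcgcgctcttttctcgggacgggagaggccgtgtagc
PSPC1: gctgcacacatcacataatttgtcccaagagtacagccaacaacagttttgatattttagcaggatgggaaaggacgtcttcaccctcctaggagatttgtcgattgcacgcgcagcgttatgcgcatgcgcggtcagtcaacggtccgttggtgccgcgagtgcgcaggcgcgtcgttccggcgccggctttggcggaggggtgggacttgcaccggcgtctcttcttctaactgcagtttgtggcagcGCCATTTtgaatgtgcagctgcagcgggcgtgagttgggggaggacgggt
HNRNPK, upstream start: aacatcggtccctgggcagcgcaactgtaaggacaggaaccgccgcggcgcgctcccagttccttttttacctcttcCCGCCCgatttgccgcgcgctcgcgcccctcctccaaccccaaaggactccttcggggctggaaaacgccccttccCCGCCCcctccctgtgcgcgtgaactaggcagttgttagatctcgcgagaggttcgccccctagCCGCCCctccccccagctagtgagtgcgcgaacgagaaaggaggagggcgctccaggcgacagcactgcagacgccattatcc
HNRNPK, downstream start: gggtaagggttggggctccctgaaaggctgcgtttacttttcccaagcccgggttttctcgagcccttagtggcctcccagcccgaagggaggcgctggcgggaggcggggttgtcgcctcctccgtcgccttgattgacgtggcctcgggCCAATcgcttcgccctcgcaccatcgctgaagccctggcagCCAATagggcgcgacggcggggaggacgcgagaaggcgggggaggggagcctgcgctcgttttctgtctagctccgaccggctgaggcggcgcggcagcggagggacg
AAATGGC was found in 3 of the 8 promoters (NONO, PSPC1 and TARDBP), against 4.39% of all 35116 promoters of this length. GGGCGG was in 4 of 8 against 45% of all, CCAAT in 4 of 8 against 34.6%, and the NRF1-type GCGCATGC in 1 of 8 (PSPC1, in lower case above) against 3.05%. TATAAA, found in 11.5% of all promoters, and CCGGAAG, an ETS-type motif found in 10.3%, were in 0 of the 8. These matches are a description of the letters in the windows.

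Libraries held between 52158403 and 102070223 gene counts in K562 and between 58078323 and 66832780 in the siRNA-treated mESCs. The share of reads outside annotated genes was 13.1 to 16.0% in K562, but 19.6 to 20.2% in siControl against 28.9 to 29.9% in siNsun2, and the number of genes with a count was 36407 to 36464 against 38693 to 39115. In K562 the widest gap was between TET2 KO shMBD6, with 24480 to 26963 genes, and TET2 WT shMBD6, with 33529 to 34601. Replicates differed by more than sampling noise in every pair (chi-square per degree of freedom 3.92 to 14.9). Levels are given as CPM, a gene's count divided by its library's size, with sizes scaled by TMM (trimmed mean of M-values, which takes most genes as unchanged); differences are log2 and called at an edgeR adjusted p under 0.05. Nsun2 fell from 129 ± 3.45 to 103 ± 3.55 CPM (SD, n = 3) under siNsun2, a log2 difference of −0.34, or from 119 to 125 CPM a library to 105 to 114 when CPM were left unscaled. MBD6 averaged 41.5 CPM under shControl and 28.0 under shMBD6 in TET2 WT, a log2 difference of −0.57, but 30.3 and 34.4 CPM in TET2 KO, a log2 difference of 0.19 (edgeR adjusted p = 0.0574). In caRNA the last group therefore lacks the fall its label names, and it is called the libraries labelled shMBD6. This level does not by itself show whether MBD6 mRNA or protein was depleted. The paper reports that MBD6 knockdown attenuated the growth of TET2-knockout K562. TET2 caRNA differed by 0.09 between the genotypes under shControl (adjusted p = 0.0735), by −0.36 between those labelled shMBD6 and by −0.44 between the TET2 KO libraries labelled shMBD6 and shControl, levels that do not by themselves show whether the locus was disrupted. Esrrb, Zfp42 and Nanog were high in mESCs while Sox2 was at 0 counts, and in K562 GATA1 was present (54.2 ± 3.78 CPM in TET2 WT shControl), HBG2 was at 0 and HBZ at 0 to 19 counts a library.

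Of the 9 human genes, 7 had enough counts to test. RBM14 had 1 count over the 12 K562 libraries and was at 0 in 11 of them; in a K562 library a count of 0 allows up to 3 counts, or 0.0294 to 0.0575 unscaled CPM (counting error only). Its span on chromosome 11 (66616626 to 66629934) lies wholly within the readthrough gene RBM14-RBM4, although 6048 of its 6480 exon bases (93.3%) lie outside the exons of that gene. RBM14-RBM4 had group means of 44.8 to 58.1 CPM, and how the counting assigned reads of RBM14 is uncertain. Mouse Rbm14 had 4 counts over 6 libraries, again beside a readthrough gene, Gm21992, at 584 ± 5.51 CPM in siControl and 525 ± 12.2 in siNsun2. The near-empty rows are thus no measure of either gene's RNA.

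TARDBP, on chromosome 1 (11012344 to 11030528), had 9 counts over the 12 K562 libraries, of which 8 fell in a single library labelled shMBD6 in TET2 KO, and was at 0 in 10. Mouse Tardbp, by contrast, had 13273 to 14333 counts a library. No gene overlaps TARDBP on its strand in GENCODE v44, the annotation used here, while the authors counted with an earlier release. Whether that release assigned its reads to another gene was not tested.

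NEAT1, the scaffold, took 0.131 to 0.230% of all gene counts in K562 caRNA. Per kilobase of gene span it stood at 79.1 ± 2.21 CPM in wild-type and 79.7 ± 0.81 CPM in knockout cells under shControl (SD, n = 3). With shMBD6 it was at 92.4 ± 1.05 CPM in wild-type cells and 58.4 ± 0.834 CPM in the knockout libraries so labelled. These were the highest levels of the 7 tested genes in each K562 group, per kilobase of span and of merged exons alike. The near-empty rows of RBM14 and TARDBP cannot be ranked.

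SFPQ followed, at 21.0 to 26.3 CPM per kilobase of span. The span is used because chromatin RNA is rich in unspliced transcripts. HNRNPK, DAZAP1 and CPSF6 lay between 4.92 and 9.69, NONO between 2.42 and 3.30, and PSPC1 between 1.81 and 2.34. The place of NONO depended on the annotation, since per kilobase of its shorter RefSeq span (17.5 kb) it was at 6.46 to 8.80 and ranked 3rd or 4th. Between neighbours in this order the libraries overlapped for CPSF6 and DAZAP1 in both TET2 KO groups and for NONO and PSPC1 in TET2 KO shControl. Per kilobase of exon PSPC1, whose introns are long, ranked 2nd or 3rd, at 40.8 to 52.5 CPM.

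In mESCs Neat1 stood at 31.8 CPM per kilobase of span in siControl, above Sfpq at 25.4, and at 22.1 in siNsun2, where its libraries overlapped those of Sfpq at 22.0. Per kilobase of exon it ranked 4th in siControl and 6th in siNsun2, below Sfpq (84.1 and 72.9) and Pspc1 (80.2 and 69.8). Neat1 took 0.0619% of the gene counts in siControl and 0.0489% in siNsun2.

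**Figure D1:**
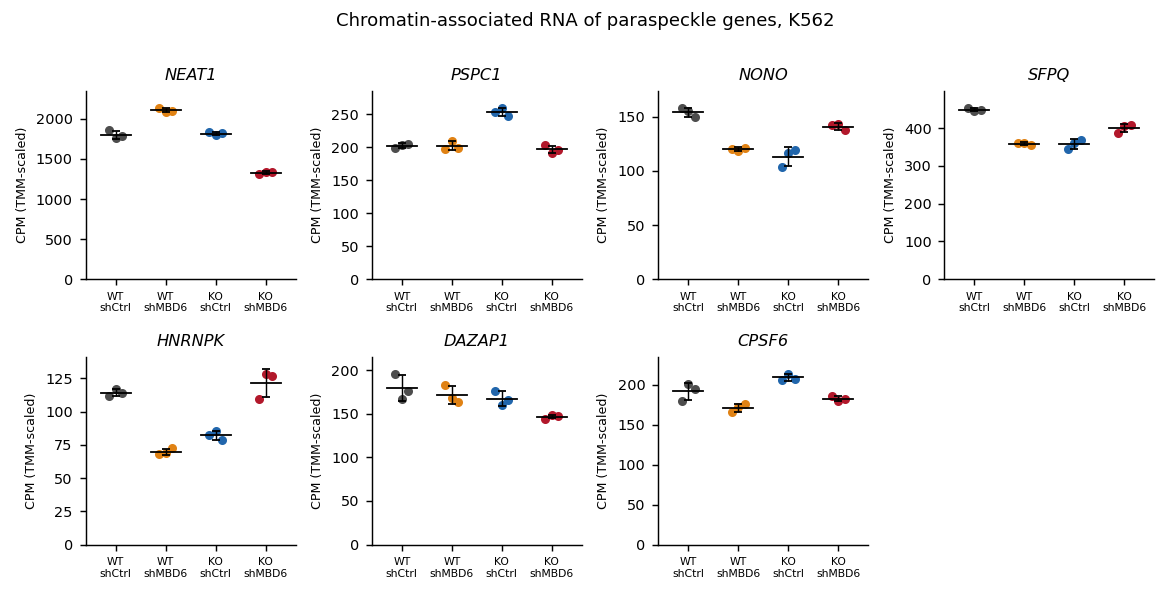
Level of the 7 tested genes in K562, in CPM (TMM-scaled), by group. Dots are libraries, bars means and error lines the SD of 3 libraries. NEAT1 is lowest in the TET2 KO libraries labelled shMBD6 (1307 to 1342 CPM), PSPC1 is highest in TET2 KO shControl, and NONO, SFPQ and HNRNPK are low in TET2 WT shMBD6 and TET2 KO shControl.

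In mESCs, the siNsun2 libraries had less chromatin-associated Neat1 than siControl. Its level was 667, 653 and 658 CPM in the siControl libraries and 466, 455 and 460 CPM in the siNsun2 libraries. All 3 siNsun2 libraries lay below all 3 controls. The log2 difference was −0.52 (SE 0.02, 95% interval −0.56 to −0.48, edgeR adjusted p = 7.16e-38), a fall to 0.697 of the control level. Neat1 lay at the 2.64th percentile of the log2 differences of 5534 genes of high level (those whose log2 CPM averaged 5 or more) and was lower under each of 4 scalings (−0.58 to −0.31). In bulk RNA fewer cells of a type and less RNA per cell cannot be told apart, and no spike-in counts were used, so each difference stands relative to the rest of its library.

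All 8 tested genes were called lower in siNsun2, but this holds for the TMM scaling and DESeq2's size factors only. Their libraries did not overlap under TMM. The share of all tested genes without overlap was not counted, so nothing particular to these genes is read from this. Under TMM 24.3% of the 27603 tested genes were called lower and 25.8% higher. Among the 5534 genes of high level 78.7% were called lower and 8.46% higher. Genes of high level fell as a class, since the median log2 difference was 0.14 over all tested genes, −0.21 over those of high level and −0.20 over the 8 genes. Scaled by total gene counts, 3 of the 8 were lower and 2 higher, while all genes split into 10248 higher and 2584 lower instead of 7128 and 6716. With TMM factors drawn from genes of high level, 2 were lower and 2 higher, and all genes split into 11016 and 2033. These last 2 scalings moved the median of all genes to 0.32 and 0.34. DESeq2's size factors gave 6351 higher and 7793 lower.

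Among the DBHS family, Nono held its direction under all 4 scalings. It fell from 108, 101 and 104 CPM to 88.6, 83.8 and 83.5 CPM, a log2 difference of −0.29 (SE 0.03, adjusted p = 3.72e-12), with −0.35 to −0.08 over the scalings, each called. Pspc1 (460 ± 7.51 to 400 ± 9.19 CPM, SD, n = 3) and Sfpq (399 ± 7.35 to 346 ± 3.82 CPM) had log2 differences of −0.20 and −0.21 under TMM (adjusted p = 6.81e-13 and 4.87e-13), but of 0.01 and 0.00 against genes of high level.

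Of the proteins that act on the choice of the NEAT1 end, Hnrnpk went from 207 ± 4.27 to 174 ± 4.49 CPM, a log2 difference of −0.25 (adjusted p = 1.22e-13) that was negative under all 4 scalings (−0.31 to −0.04) and missed the threshold in the last. Cpsf6 (323 ± 5.31 to 298 ± 3.67 CPM) and Tardbp (229 ± 0.354 to 214 ± 1.06 CPM) had log2 differences of −0.12 and −0.10 under TMM (adjusted p = 1.53e-05 and 0.000765) and were called higher, at 0.09 and 0.11, under the TMM factors of high genes. Dazap1 went from 61.8 ± 2.13 to 55.8 ± 1.12 CPM (−0.15, adjusted p = 0.00163), and turned to 0.06 under those factors without being called.

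**Figure D2:**
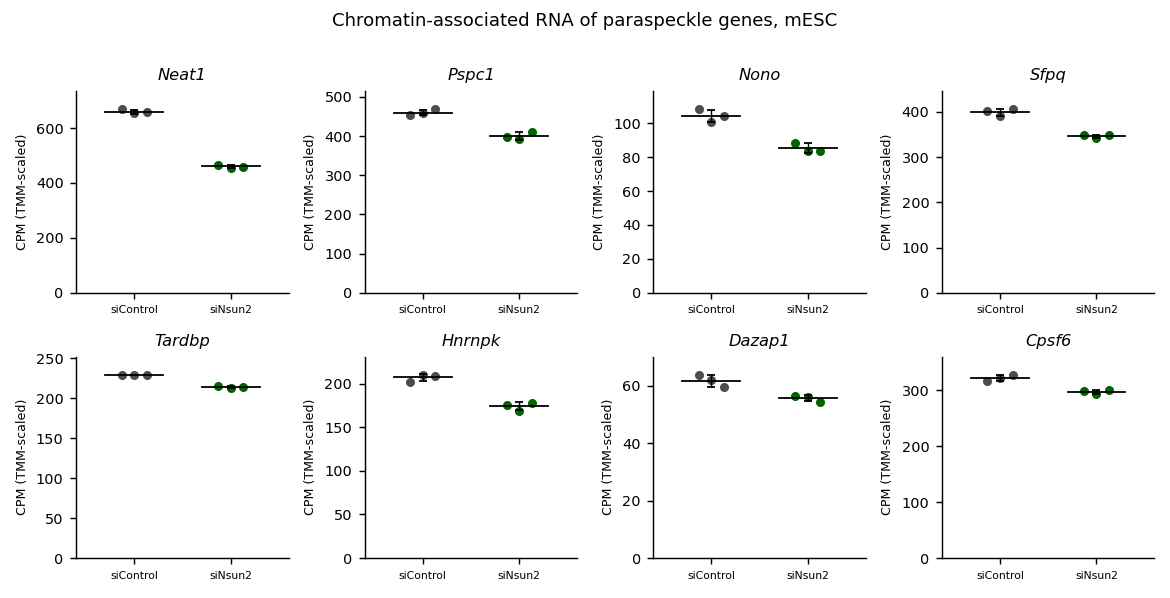
Level of the 8 tested genes in mESCs, in CPM (TMM-scaled), for siControl and siNsun2. Dots are libraries, bars means and error lines the SD of 3 libraries. All 8 pairs of groups stand apart in this scaling, Neat1 by the most (660 against 460 CPM). How many of all tested genes stand apart was not counted. For Pspc1, Sfpq, Tardbp, Dazap1 and Cpsf6 the direction turned under 1 or 2 other scalings.

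Ratios between genes of the same library do not depend on the scaling. NEAT1 was set against MALAT1, its neighbour on the chromosome and another abundant nuclear lncRNA, which fell from 8216 to 6569 CPM in siNsun2 (log2 difference −0.32, and −0.38 to −0.11 over the 4 scalings). The log2 ratio of Neat1 to Malat1 was −3.63, −3.64 and −3.64 in siControl and −3.82, −3.84 and −3.85 in siNsun2. The groups did not overlap and differed by −0.20 (SE 0.01). An exact two-sided permutation test of 3 against 3 libraries cannot go below p = 0.1, which this ratio reached, and of 20 such tests 16 did (Benjamini-Hochberg adjusted p = 0.125). Pspc1 to Sfpq differed by 0.00 (exact permutation p = 0.9) and Pspc1 to Nono by 0.09 (p = 0.2), each with overlapping groups.

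Other paraspeckle proteins of mESCs, the FET, hnRNP and RBM families among them, were called lower for 18 and higher for 2 of 25 tested under TMM, but lower for 3 and higher for 5 with TMM factors of high genes and lower for 6 and higher for 5 by total counts. Their median log2 difference was −0.20, the median of high genes −0.21. Among genes of high level 78.7% were lower and 8.46% higher under TMM. Taf15, a FET-family RNA-binding protein (−0.52), and the splicing factor Srsf10 (−0.31) fell most, and Hnrnpr (0.14) and Ahdc1 (0.09) rose. Of the partners of NEAT1 in the HEXIM1 and DNA-PK complex 4 of 5 were lower and 0 higher (Matr3 −0.41, Xrcc5 −0.28), with 3 lower and 1 higher under the last 2 scalings.

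Of 4 transcription factors known to act on NEAT1, 2 were lower (Atf2 −0.34, Hif1a −0.30) and 0 higher, or 2 and 2 under TMM of high genes, and of 7 neighbours on the chromosome 3 were (Malat1 at −0.32 among them), but 1 with total counts or high genes as scaling. Genes of other nuclear bodies (9 tested) gave 5 lower, with the Cajal body gene Coil at −0.77 and the nucleolar gene Npm1 at −0.40, and 1 higher, the PML body gene Sp100 at 0.81, against 3 lower and 4 higher under TMM of high genes. Beside these, 4 of 5 tested mESC markers were lower (summed 997 to 1030 CPM in siControl, 866 to 885 in siNsun2), but 1 lower and 3 higher under TMM of high genes, and 3 of 6 feeder fibroblast markers were lower (46.3 to 48.4 against 34.0 to 34.9 CPM), 1 of 6 by total counts and TMM of high genes. The part of cell state or of remaining feeders in the differences of Neat1 and its partners was not tested.

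In K562 under shControl, NEAT1 was by TMM at a similar level in TET2 KO and TET2 WT, while genes of its partners differed in both directions. The words TET2 loss name this comparison of groups below. The genotypes may also differ by clone, whose part was not tested. NEAT1 was at 1858, 1762 and 1785 CPM in TET2 WT and 1831, 1795 and 1820 in TET2 KO, overlapping groups with a log2 difference of 0.01 (95% interval −0.03 to 0.05, edgeR adjusted p = 0.710). Its sign depended on the scaling, from −0.17 (called, by total counts) to 0.01. Set against MALAT1, which was at 0.17 by TMM but at −0.00 by total counts, the log2 ratio of NEAT1 differed by −0.16 (SE 0.05, exact permutation p = 0.1), with no overlap. Of the 7 tested genes 2 were higher and 3 lower, beside 23.5% and 22.3% of the 26023 tested genes (by total counts, 1 higher and 5 lower, and 4523 against 8285 genes in place of 6127 against 5794).

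Within the DBHS family, PSPC1 went up while NONO and SFPQ went down, under all 4 scalings. PSPC1 was at 198, 204 and 205 CPM in TET2 WT and 253, 259 and 247 in TET2 KO, a log2 difference of 0.32 (SE 0.03, adjusted p = 3.22e-10). NONO was at 158, 155 and 150 CPM and fell to 103, 117 and 120 (−0.45, SE 0.04, adjusted p = 4.97e-11). SFPQ was at 452, 444 and 449 CPM and fell to 345, 360 and 369 (−0.33, SE 0.03, adjusted p = 1.09e-11). None of these 3 pairs of groups overlapped. The log2 ratio of PSPC1 to NONO went from 0.39 ± 0.06 to 1.16 ± 0.12 (SD, n = 3) and that of PSPC1 to SFPQ from −1.15 ± 0.04 to −0.50 ± 0.07, whereas that of SFPQ to NONO moved by 0.12 (exact permutation p = 0.1 in each).

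HNRNPK was also lower, at 112, 117 and 114 CPM in TET2 WT and 82.2, 85.6 and 78.5 in TET2 KO (−0.48, SE 0.05, adjusted p = 4.89e-10), under all 4 scalings. CPSF6 was at 192 ± 10.5 and 209 ± 4.29 CPM, called higher by TMM (0.12, adjusted p = 0.00451) but at −0.05 by total counts. DAZAP1, at 180 ± 14.7 and 167 ± 8.46 CPM in overlapping groups, differed by −0.10 (adjusted p = 0.0693) and was called lower under the other 3 scalings (−0.28 to −0.12). HNRNPK, NONO and SFPQ lay at the 6.96th, 8.02th and 14.2th percentiles of the log2 differences of 5959 genes of high level.

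With shMBD6 in TET2 WT cells, NEAT1 rose and NONO, SFPQ and HNRNPK fell under all 4 scalings. NEAT1 reached 2131, 2085 and 2097 CPM, above all 3 control libraries (0.22, SE 0.02, 95% interval 0.18 to 0.27, adjusted p = 1.01e-10), and its log2 ratio to MALAT1 rose by 0.15 (exact permutation p = 0.1). The median log2 difference of genes of high level was −0.17 in this comparison, so NEAT1 stood 0.40 above it, at their 88.8th percentile. Of the 7 genes 1 was higher and 4 were lower, against 17.7% and 24.7% of all tested genes and 18.2% and 59.3% of genes of high level.

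HNRNPK had the largest difference of the 7 here. It went from 112, 117 and 114 CPM to 67.8, 69.2 and 72.5 CPM (−0.71, SE 0.05, adjusted p = 9.27e-14), the 2.82th percentile of genes of high level. NONO fell to 121, 118 and 121 CPM (−0.36, SE 0.04, adjusted p = 8.31e-09) and SFPQ to 361, 360 and 356 CPM (−0.32, SE 0.03, adjusted p = 2.79e-11). These 3 genes had no library in common range with the controls.

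PSPC1 was level, at 197, 210 and 199 CPM (−0.00, 95% interval −0.07 to 0.06, adjusted p = 0.928), but 0.09 to 0.16 and called higher under the other 3 scalings. CPSF6 was at 171 ± 5.16 CPM (−0.17, adjusted p = 0.000247) and was not called under the other 3 scalings (−0.07 to 0.00). DAZAP1, with overlapping groups, stayed at 172 ± 10.3 CPM (−0.06, adjusted p = 0.273). The split of all genes was sensitive as well, with 4616 higher and 6431 lower under TMM, 5798 and 4715 under DESeq2's size factors, 5665 and 4932 by total counts and 6567 and 3842 under TMM of high genes, where the median of all genes stood at 0.10, 0.21, 0.19 and 0.26.

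In TET2 KO cells the libraries labelled shMBD6, in which MBD6 caRNA was not lower, had less NEAT1 and PSPC1 and more HNRNPK, NONO and SFPQ than shControl. NEAT1 was at 1307, 1338 and 1342 CPM, below all 3 TET2 KO shControl libraries (−0.45, SE 0.02, 95% interval −0.49 to −0.41, adjusted p = 3.82e-18), and its log2 ratio to MALAT1 went down by 0.29, from −3.36 ± 0.06 to −3.65 ± 0.03. PSPC1 fell to 202, 192 and 195 CPM (−0.37, SE 0.03, adjusted p = 4.11e-11). HNRNPK rose to 109, 129 and 127 CPM (0.57, SE 0.05, adjusted p = 2.24e-11), NONO to 142, 143 and 138 CPM (0.32, SE 0.04, adjusted p = 1.40e-07) and SFPQ to 387, 405 and 409 CPM (0.16, SE 0.03, adjusted p = 1.79e-05). HNRNPK lay at the 97.2th percentile of genes of high level.

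None of the 7 pairs of groups overlapped by TMM. The share of all tested genes without overlap was not counted, so nothing particular to these genes is read from this. The 7 directions were the same under all 4 scalings. CPSF6 (183 ± 3.41 CPM, −0.20, adjusted p = 3.43e-05) and DAZAP1 (147 ± 2.10 CPM, −0.19, adjusted p = 0.00125) were lower too, but not called by total counts. So 3 of 7 were higher and 4 lower, beside 15.7% and 20.6% of all tested genes (by total counts 6046 higher and 4047 lower in place of 4095 and 5370). Among genes of high level 32.0% were higher and 39.0% lower by TMM. PSPC1 to NONO, at 1.16 ± 0.12 in TET2 KO shControl, came back to 0.48 ± 0.05 on the log2 scale, and PSPC1 to SFPQ from −0.50 ± 0.07 to −1.03 ± 0.08 (exact permutation p = 0.1 in each).

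Between the genotypes in the libraries labelled shMBD6, NEAT1 was lower in TET2 KO by 0.66 on the log2 scale (−0.66, SE 0.02, adjusted p = 3.74e-23) and by 0.60 relative to MALAT1 (−0.60, SE 0.03, exact permutation p = 0.1). It lay at the 2.58th percentile of genes of high level. HNRNPK was higher (0.80, SE 0.05, adjusted p = 2.44e-15), and DAZAP1 lower (−0.23, SE 0.05, adjusted p = 9.54e-05), both under all 4 scalings. NONO (0.23, adjusted p = 1.65e-05), SFPQ (0.16, adjusted p = 1.55e-05) and CPSF6 (0.09, adjusted p = 0.0249) were called higher by TMM, but the first was at 0.02 to 0.11 and the others at −0.06 to 0.04 and −0.12 to −0.03 elsewhere. PSPC1 groups overlapped (−0.04, adjusted p = 0.325), although it was called lower under the other 3 scalings (−0.25 to −0.16).

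By TMM 4 of the 7 genes were thus higher and 2 lower between the genotypes with shMBD6, against 30.1% and 28.5% of all tested genes. Among genes of high level 64.0% were higher and 17.5% lower, so the 7 genes show no excess of higher calls. The counts were 2 and 3, 1 and 3, and 1 and 4 under size factors, total counts and TMM of high genes. All genes split into 7837 higher and 7422 lower by TMM and 6157 and 8557, 5770 and 8836, and 4896 and 9605 under those 3, with medians of −0.03, −0.15, −0.18 and −0.25. Genes of high level had a median of 0.22 here.

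**Figure D3:**
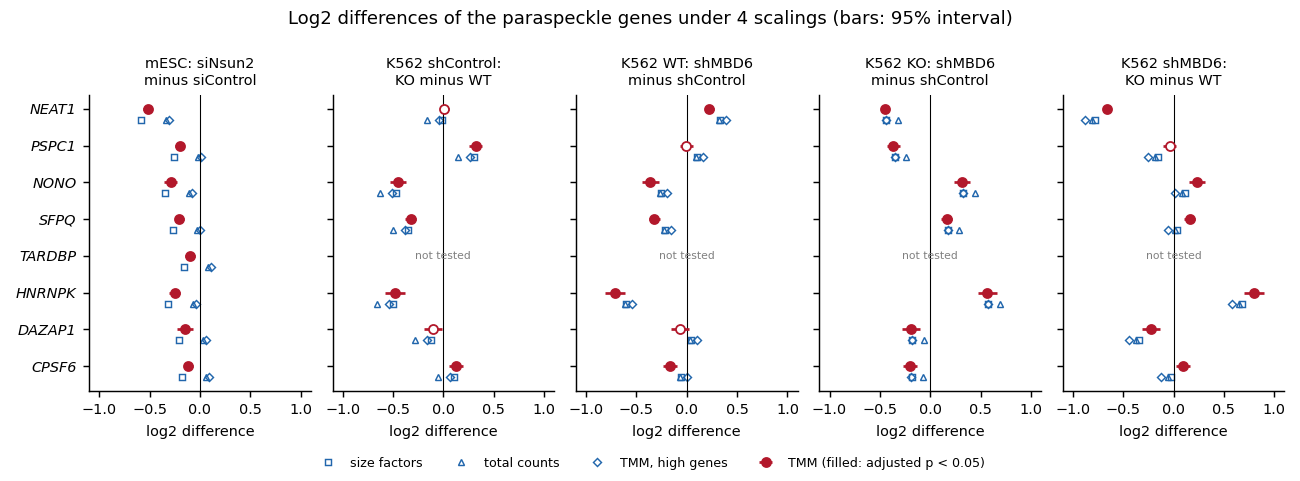
Log2 difference of each gene in 5 comparisons. Red points are the TMM fit with its 95% interval (filled where the adjusted p was under 0.05) and blue open symbols the same gene under the 3 other scalings. NEAT1 runs from −0.66 to 0.22 in K562, HNRNPK from −0.71 to 0.80; symbols on both sides of 0 mark a direction that turned with the scaling.

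Whether the difference with shMBD6 itself differed between the genotypes was tested as an interaction, the log2 difference in TET2 KO minus that in TET2 WT. It was negative for NEAT1 (−0.67, SE 0.03, adjusted p = 3.77e-19) and PSPC1 (−0.36, SE 0.05, adjusted p = 4.68e-08) and positive for HNRNPK (1.28, SE 0.07, adjusted p = 1.08e-16), NONO (0.68, SE 0.06, adjusted p = 1.07e-11) and SFPQ (0.48, SE 0.04, adjusted p = 3.73e-12). These 5 were called in the same direction under all 4 scalings, NEAT1 between −0.83 and −0.65 and HNRNPK between 1.12 and 1.31. DAZAP1 (−0.13, adjusted p = 0.109) and CPSF6 (−0.03, 95% interval −0.13 to 0.07, adjusted p = 0.652) did not pass. The 3 higher and 2 lower stand beside 23.9% and 25.5% of all tested genes and 48.8% and 30.6% of genes of high level.

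The other scalings gave 3 higher and 4 lower of the 7 genes under size factors and TMM of high genes, and 3 and 2 by total counts. All genes split into 6225 higher and 6627 lower by TMM, 5338 and 7372, 4848 and 7874, and 6432 and 6419, with medians of −0.19, −0.29, −0.35 and −0.17. MALAT1 had an interaction of −0.23, in the direction of NEAT1 and smaller. The libraries of TET2 WT shMBD6 and those labelled shMBD6 in TET2 KO also differed most in the number of genes detected, and MBD6 itself had an interaction of 0.75, whose part in these values was not tested.

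**Figure D4:**
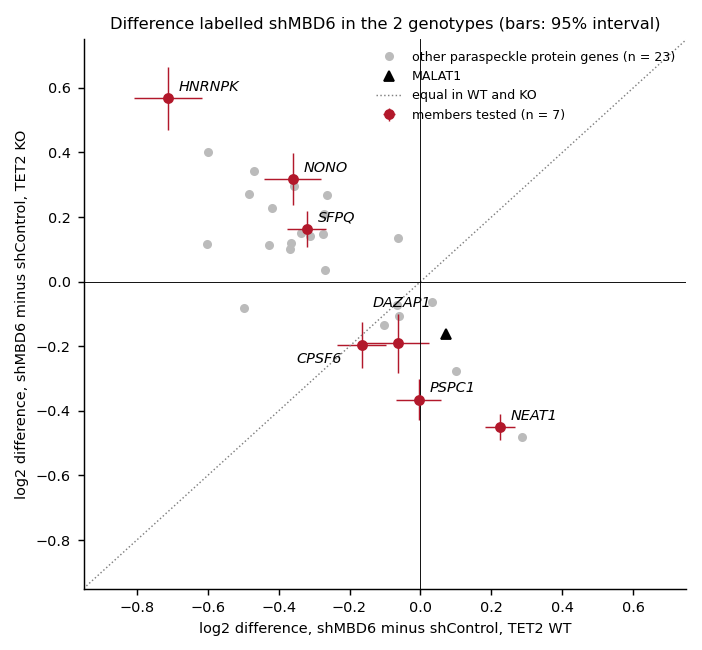
Log2 difference with shMBD6 in TET2 WT cells (horizontal) against that of the TET2 KO libraries labelled shMBD6 (vertical) for the 7 genes, for 23 other paraspeckle protein genes in grey and for MALAT1 as a triangle. The dotted line marks equal differences. HNRNPK, NONO and SFPQ lie at the upper left and NEAT1 at the lower right; PSPC1 lies near 0 on the horizontal axis by TMM, but at 0.09 to 0.16 under other scalings.

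The 4 K562 comparisons share libraries, so their values are given side by side and not as independent evidence. Over the 12 libraries, as a description, log2 CPM of NONO and SFPQ had a Pearson r of 0.946, SFPQ and HNRNPK 0.807 and NONO and HNRNPK 0.796, against −0.667 for PSPC1 and NONO and −0.792 for NEAT1 and HNRNPK. All 12 points share the grouping into 4 conditions. The genes most like NEAT1 among 5860 of high level were PIK3CB (r = 0.992), MARCHF1 (0.988), ACSS2 (0.987), SCHLAP1 (0.986) and ENSG00000250954 (0.983). For PSPC1 they were LINC01278 and PRRC2C (0.981 each), and DLEU1, EVI5 and ZNF148 (0.977 each).

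Most other paraspeckle proteins called in K562 had the direction of NONO, SFPQ and HNRNPK. Of 23 tested, 15 were lower and 3 higher in TET2 KO against TET2 WT under shControl (median −0.21), led by RBM4B (−0.54) and AKAP8L (−0.52), with ZC3H6 (0.43) and NUDT21, the partner of CPSF6 in cleavage factor Im (0.27), among those that rose. With shMBD6 in TET2 WT 15 were lower and 1 higher (median −0.31), with RBM4B and the FET protein EWSR1 both at −0.60 and ZC3H6 at 0.29. In the TET2 KO libraries labelled shMBD6 13 were higher and 3 lower (median 0.12), EWSR1 at 0.40 and the cold-inducible CIRBP at 0.34 but ZC3H6 at −0.48 and AHDC1 at −0.28. The split kept its direction under the other scalings in these comparisons, from 1 to 4 higher and 14 to 20 lower in the first pair and from 13 to 15 higher and 2 to 3 lower in the last.

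Comparing the genotypes with shMBD6, 16 of the 23 were higher and 2 lower by TMM, but 7 and 7 under TMM of high genes, with 10 and 5 and 8 and 6 in between (EWSR1 0.65, HNRNPF 0.44, AHDC1 −0.50, ZC3H6 −0.34). Among genes of high level 64.0% were higher and 17.5% lower by TMM. The interaction was positive for 17 and negative for 2 (14 and 4 under TMM of high genes), with EWSR1 at 1.00, CIRBP at 0.81, ZC3H6 at −0.77 and AHDC1 at −0.38. Its median over the 23 genes was 0.47, over genes of high level 0.13 and over all tested genes −0.19. Of genes of high level 48.8% had a positive interaction that was called and 30.6% a negative one.

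The HEXIM1 and DNA-PK partners of NEAT1 gave smaller counts. XRCC6, the smaller Ku subunit, was at −0.25 with TET2 loss under shControl, −0.48 with shMBD6 in TET2 WT (XRCC5, the larger subunit, −0.36) and 0.35 in the TET2 KO libraries labelled shMBD6, while HEXIM1, an inhibitor of the elongation kinase P-TEFb, was at 0.39 in the first comparison and −0.45 in the last. In those 3 comparisons 2, 0 and 3 of 4 were higher and 1, 3 and 1 lower, but with total counts 0 higher and 3 lower in the first and 3 and 0 in the last, and 1 and 1 in the first under TMM of high genes. PRKDC, the catalytic subunit of DNA-PK, was at 0.08 in the first comparison (−0.10 by total counts) and 0.11 in the last. In the genotype comparison with shMBD6, and in the interaction, 3 of 4 were higher and 0 lower under all 4 scalings (XRCC6 0.58 and 0.83, XRCC5 0.46 and 0.45).

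Of 5 transcription factors that act on NEAT1, 4 were higher and 0 lower with TET2 loss under shControl, HSF1 by 0.58 and HIF1A by 0.31, although by total counts 1 was higher and 2 lower. EPAS1, which induces NEAT1 in hypoxia, was at 0.48 with shMBD6 in TET2 WT and 0.28 in the TET2 KO libraries labelled shMBD6, ATF2 at −0.14 (0.02 under TMM of high genes) and −0.22 and HIF1A, in TET2 KO, at −0.43. Over the list 1 was higher and 2 lower in TET2 WT (2 and 0 under the other scalings) and 2 and 2 in TET2 KO. Between the genotypes in libraries labelled shMBD6, 2 were higher in TET2 KO (HSF1 at 0.63 among them) and 1 lower (HIF1A −0.22), against 3 lower under the other scalings. The interaction was negative for HIF1A (−0.53) and EPAS1 (−0.20).

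The neighbours of NEAT1 on chromosome 11 did not move as a block with it. With TET2 loss under shControl 3 of 7 were higher and 1 lower (LTBP3 0.75, EHBP1L1 −0.44), or 1 and 2 by total counts. With shMBD6 in TET2 WT MALAT1 was at 0.07, SLC25A45 at −1.33 and FRMD8 at −0.22, 1 higher and 2 lower, or 3 and 1 under size factors and TMM of high genes. In the TET2 KO libraries labelled shMBD6 0 were higher and 4 lower, 1 and 3 by total counts, with TIGD3 at −1.95, LTBP3 at −0.51 and MALAT1 at −0.16. Between the genotypes with shMBD6 2 were higher (SLC25A45 1.20, FRMD8 0.19 but −0.02 under TMM of high genes) and 2 lower (EHBP1L1 −0.36, MALAT1 −0.06), or 1 and 4 under the other scalings, and the interaction gave 2 higher (SLC25A45 1.37, FRMD8 0.32) and 3 lower (LTBP3 at −0.71 among them), or 1 and 3 under size factors and TMM of high genes.

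Genes of other nuclear bodies were taken for comparison. With TET2 loss under shControl 3 of 9 were higher, PML (0.38) and SP100 (0.37) of PML bodies among them, and 4 lower, with the nucleolar FBL (−0.27) and NCL (−0.21). With shMBD6 in TET2 WT 0 were higher and 6 lower (COIL −0.60, NCL −0.50), but 2 and 3 under TMM of high genes, and in the TET2 KO libraries labelled shMBD6 4 were higher (NCL and FBL 0.37 each) and 3 lower (SRRM2 of nuclear speckles −0.51, SP100 −0.29). The genotypes with shMBD6 differed in that 7 were higher (COIL 0.68, NCL 0.65) and 1 lower (SRRM2 −0.25), 4 and 3 under TMM of high genes. The interaction gave 5 higher (COIL 0.88, NCL 0.87) and 2 lower (SRRM2 −0.55, SP100 −0.27), 4 and 3 under TMM of high genes.

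Erythroid markers called by TMM had the direction of NONO, SFPQ and HNRNPK with TET2 loss under shControl and with shMBD6 in each genotype. The summed level of the markers in TET2 WT was 208 to 223 CPM under shControl and 170 to 185 under shMBD6, and in TET2 KO 131 to 141 under shControl and 171 to 174 in the libraries labelled shMBD6. TAL1 made up most of it (133 of 215 CPM in TET2 WT shControl). With shMBD6 in TET2 WT, TAL1 was at −0.07, not called by TMM, and called higher under 1 other scaling. Of 6 tested, 5 were lower with TET2 loss under shControl, 3 lower with shMBD6 in TET2 WT and 5 higher in the TET2 KO libraries labelled shMBD6, with 0 in the other direction except 1 higher in the second comparison under TMM of high genes, and 5 had a positive interaction. Between the genotypes with shMBD6 3 were higher and 1 lower, or 1 and 1 under the other scalings, and the summed levels overlapped. Markers of other blood cells summed to 1.83 to 4.08 CPM in every library. The part of erythroid state in the differences of the paraspeckle genes was not tested.

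**Figure D5:**
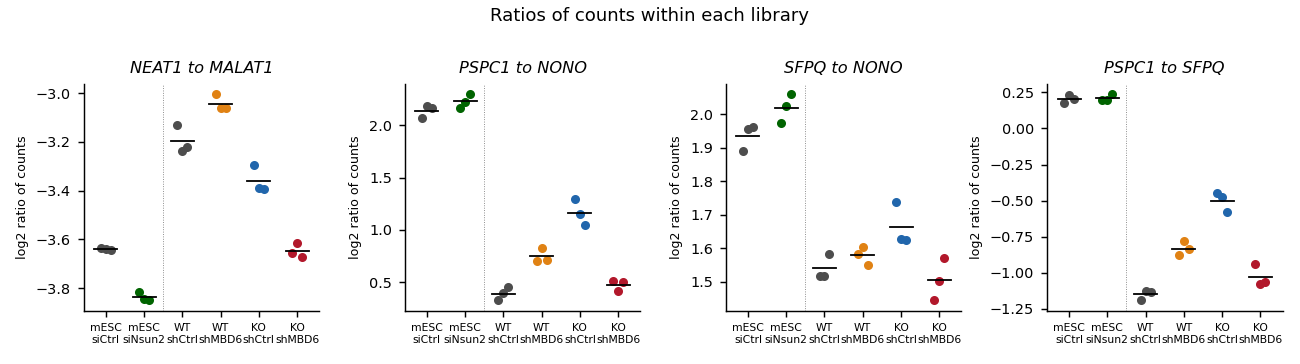
Within-library log2 ratios of NEAT1 to MALAT1, PSPC1 to NONO, SFPQ to NONO and PSPC1 to SFPQ by group, in mESCs and K562. Each point is a library. PSPC1 to NONO rises from 0.39 to 1.16 between TET2 WT and TET2 KO under shControl and stands at 0.48 in the TET2 KO libraries labelled shMBD6, while SFPQ to NONO stays between 1.44 and 1.74 in K562.

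RBM14-RBM4, the readthrough gene over RBM14, went with NONO and SFPQ. It was at −0.22 with TET2 loss under shControl (adjusted p = 0.00215), −0.38 with shMBD6 in TET2 WT (2.01e-06) and 0.17 in the TET2 KO libraries labelled shMBD6 (0.0221), with an interaction of 0.54 (1.07e-06). Gm21992 in mESCs was at −0.15 (1.81e-09), close to the median of genes of high level. Whether any of these reads belong to RBM14 cannot be told from gene counts, so the values do not stand for RBM14.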

How the data were processed

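Chromatin-associated RNA of mESCs and K562 was sequenced with a stranded total RNA kit (SMARTer Pico v2). The deposited values are whole-number counts of reads per gene, which per the labels the authors made with Trimmomatic 0.39, HISAT2 2.2.1 and HTSeq 0.12.4 on mm10 and hg38; their methods name featureCounts as well, while the tables carry HTSeq summary lines, which were left out of library sizes. Replicates were not pooled, and the tables hold no lines for the ERCC spike-ins, so no spike-in scaling was possible. Depth was 52158403 to 102070223 gene counts in K562 and 58078323 to 66832780 in the siRNA libraries. Counting error is therefore small for the tested genes, and the spread between libraries sets the precision.

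The 9 genes and all lists were chosen with earlier results of these data known. IDs were matched to GENCODE v44 and vM21 without the version suffix (99.12% and 99.93% matched). Counts were fitted with edgeR 4.0.16 (quasi-likelihood, robust, TMM, filterByExpr with a minimum count of 10) in R 4.3.3, 1 model for the 12 K562 libraries and 1 for the 6 siRNA-treated mESC libraries, with 27603 mouse and 26023 human genes tested and p-values adjusted over all of them (Benjamini-Hochberg, threshold 0.05). Levels are CPM on TMM-scaled library sizes. Lengths are GENCODE spans or merged exons. Genes of high level have a mean log2 CPM of at least 5. Intervals are 1.96 SE on either side, and log2 ratios within a library used a pseudocount of 0.5 counts and exact two-sided permutation tests.

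All 9 genes are named. Of each other list the 2 called genes with the largest log2 change in each direction are named, with MALAT1 always (a few values that this rule would name are not reported here), and of the genes most like NEAT1 and PSPC1 the 5 with the highest r. Alternatives were DESeq2 1.42.0, its size factors, total counts, TMM factors from genes of high level, other filters, a 1.5-fold minimum, only the groups compared, a replicate block and leaving out each library. The fit was tested on simulated counts for the mESC comparison over 26867 genes and for TET2 KO against WT under shControl over 24876: 72% and 60% of genes changed 1.5-fold and 90% and 88% of those changed 2-fold were recovered. The simulation changed 50 genes at each fold and left 26667 and 24676 genes unchanged. In the data 50.2% and 45.8% of genes were called, so the simulation does not test the scaling. Same-numbered libraries of TET2 WT shControl and TET2 WT shMBD6 deviated together (r 0.432, 0.187 and 0.184 over genes of high level). For replicate 3, however, a library of another number matched better. The main fit has no pairing in any comparison. Every other pair of groups had at least 1 r under 0.1. TET2 WT shControl with TET2 KO shControl gave 0.294, 0.0748 and 0.179. TET2 WT shMBD6 gave 0.338, 0.0493 and 0.173 with TET2 KO shControl. With the TET2 KO libraries labelled shMBD6 it gave 0.129, −0.0716 and 0.171. In each of these pairs replicates 1 and 3 matched best with the same number and replicate 2 did not. The authors' comparisons were not used. A mESC library labelled Pscp1 WT entered no comparison.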

Additional observations from a re-analysis of the deposited data

Results flagged for a closer look

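The difference with shMBD6 differed between TET2 KO and TET2 WT cells for 5 of the 7 tested genes by the interaction term of the edgeR fit: NEAT1 (−0.67), PSPC1 (−0.36), NONO (0.68), SFPQ (0.48) and HNRNPK (1.28, all log2, TET2 KO minus TET2 WT). Of all 26023 tested genes 49.4% were called for this interaction. NEAT1, NONO, SFPQ and HNRNPK also changed direction between the genotypes, each called on both sides, and for PSPC1 the difference was −0.00 in TET2 WT and −0.37 in TET2 KO. How many of all genes changed direction in this way was not counted. In the TET2 KO libraries labelled shMBD6 the caRNA of the targeted gene was not lower.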

How the results depend on the processing

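The limit common to all values is the scaling, since the tables hold no spike-in and genes of high level moved against the rest. Of 372 alternative values of log2 changes 287 kept their direction and side of the threshold, and all 40 alternative values of ratios with a second pseudocount or as a paired sign test did. With 3 libraries a group the exact permutation test of a ratio cannot go below p = 0.1, so its p-values say nothing on stability.

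In mESCs 5 of 8 genes were called by total counts and 4 with TMM factors of high genes, in place of 8. Directions turned, with the values 0.0850 (Tardbp), 0.0346 (Dazap1) and 0.0643 (Cpsf6) by total counts, and 0.00913 (Pspc1), 0.00409 (Sfpq), 0.114 (Tardbp), 0.0636 (Dazap1) and 0.0934 (Cpsf6) with TMM factors of high genes. Measured from the median of genes of high level, a setting chosen after seeing the data, the 5 stood at 0.00802, 0.00290, 0.113, 0.0625 and 0.0922. Neat1 was 4th in siControl and 6th in siNsun2 per kilobase of exon.

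In K562, NEAT1 in TET2 KO against WT under shControl turned to −0.0103 (size factors), −0.166 (total counts), −0.0470 (TMM of high genes), −0.0119 (minimum count of 50), −0.0102 (DESeq2), −0.00406 (only the groups compared) and −0.0322 (from the median of high genes), and CPSF6 there to −0.0533 (total counts). With shMBD6 in TET2 WT, PSPC1 turned to 0.105, 0.0921, 0.163, 0.10 (no filter), 0.0541 (minimum count of 50), 0.105 (DESeq2) and 0.168 (from the median of high genes), DAZAP1 to 0.0443, 0.0324, 0.103, 0.0396 (no filter), 0.0440 (DESeq2) and 0.108, and CPSF6 to 0.00129 (TMM of high genes) and 0.00632. Between the genotypes with shMBD6, CPSF6 turned to −0.0261, −0.0545, −0.121, −0.0260 (DESeq2) and −0.126, and SFPQ to −0.0574 (TMM of high genes) and −0.0613. A 1.5-fold minimum left 0 of the 8 mESC genes and 0, 1, 0, 2 and 3 of the 7 K562 genes in the order TET2 loss, shMBD6 in TET2 WT, in TET2 KO, TET2 loss with shMBD6 and interaction, and 5616, 6611, 5113, 3956 and 9639 of all genes in the first 5 comparisons. These fewer calls follow from the added minimum; the cause of the turns was not tested.

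Leaving out a library gave 8 called genes in mESCs each time, 4 to 6, 5 to 6, 7 each time, 5 to 6 and 5 to 6 in the K562 comparisons in that order, and 11769 to 13085, 10636 to 10982, 9608 to 10030, 8279 to 9179, 14164 to 15454 and 11924 to 13178 of all genes. Only small values turned: CPSF6 in the interaction (−0.0610 to 0.0185, turned without TET2 WT shControl replicate 1), NEAT1 with TET2 loss (−0.00315 to 0.0324, without TET2 WT shControl replicate 2), PSPC1 with shMBD6 in TET2 WT (−0.0366 to 0.0118, and 0.00259 without TET2 WT shMBD6 replicate 3) and the ratio of Pspc1 to Sfpq in mESCs (−0.0100 to 0.0187, and −0.00782 without siNsun2 replicate 3). The replicate number was also fitted as a block across all groups. Signs of pairing were partial and not confined to TET2 WT shControl and TET2 WT shMBD6. With this block, shMBD6 in TET2 WT kept 1 gene higher and 4 lower. The only further call was DAZAP1, at −0.10 with TET2 loss and −0.12 in the interaction.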

Other observations

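A mESC library labelled Pscp1 WT, replicate 3, was the only one of its group given here, and its label names no siRNA. In unscaled CPM of that library Neat1 was at 439, outside the ranges of siControl (615 to 626) and siNsun2 (486 to 494). Pspc1 was at 339 (425 to 437 in siControl), Nono at 188 (94.9 to 101), Sfpq at 526 (368 to 379), Tardbp at 376 (214 to 216) and Hnrnpk at 353 (190 to 198). Dazap1 (57.7 against 55.7 to 59.9) and Cpsf6 (299 against 298 to 307) lay within the siControl range, and Rbm14 was at 0 counts there too. With 1 library in the group, no comparison was made.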
